A study of Mus musculus with 2 samples.

Results

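The amyloid precursor protein gene App, the secretase genes Psen2, Bace1 and Bace2, the tau gene Mapt, the acetylcholinesterase gene Ache, and the genes Cdk5, Cdk5r1 and Cdk5r2, which encode the kinase CDK5 and its activators p35 and p39, were examined for EGR1 binding in the mouse frontal cortex. A peak was given to a gene when its centre fell in the gene body or within 10 kb of one of its annotated transcription start sites (TSSs), and 17 of the 12014 listed peaks met this rule. These 17 peaks lay at 7 of the 9 genes. Chromatin came from the frontal cortices of male F1 hybrids of 129SvEv and C57BL/6N mice aged 6 weeks, immunoprecipitated with an antibody to EGR1, and an input DNA library of the same tissue served as the control. The labels name no transgene or treatment, cortices of several animals were pooled for each immunoprecipitation, and both immunoprecipitations were merged into 1 peak list. No processed input file was used here. The values therefore have no replicate spread and no known depth, and no value in them marks a cell type, so the tissue label could not be checked against marker genes.

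EGR1 is a zinc-finger transcription factor whose synthesis in neurons follows synaptic activity, and it binds GC-rich DNA at the motif GCGTGGGCG or GCGGGGGCG. The products of the genes described here meet in the biology of Alzheimer's disease. APP is cut by the beta-secretase BACE1 and then by gamma-secretase, for which PSEN2 can provide the catalytic subunit, to release amyloid-beta, while BACE2, a relative of BACE1, cuts APP mainly at other sites. Tau binds microtubules, and CDK5, which is active in neurons once bound to p35 or p39, is among the kinases that phosphorylate it. Acetylcholinesterase hydrolyses acetylcholine at cholinergic synapses.

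The reproducibility of each peak was given as an irreproducible discovery rate (IDR). It is an error rate estimated from how consistently the peaks found in both replicates rank, so that a lower value marks a more reproducible peak. The list ended at 2.0%. The peaks of each gene are numbered in the direction of its transcription, and distances run from the peak centre to the nearest TSS of that gene.

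The sequences of the peaks at the starts of Ache, App and Psen2 are shown first, because these peaks carried the lowest IDR of the genes involved in amyloid release and acetylcholine breakdown. Each is read from the C57BL/6J reference (mm10) on the coding strand, 5′ to 3′, so 129SvEv alleles may differ from it. Capitals mark exact sites of the motif and, in Ache and Psen2, also sites 1 base away from it; in the first App sequence the capitals mark a site 1 base away. Sites of the motif on the other strand appear as the reverse complement. Most of any overlapping untranslated region was left out.
Ache peak 1 (chr5:137287219-137287393, plus strand): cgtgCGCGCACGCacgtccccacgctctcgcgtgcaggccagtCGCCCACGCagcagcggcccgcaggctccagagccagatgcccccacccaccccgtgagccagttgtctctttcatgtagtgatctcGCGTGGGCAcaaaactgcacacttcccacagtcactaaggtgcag
App peak 1, upstream end (chr16:85173751-85173840, minus strand): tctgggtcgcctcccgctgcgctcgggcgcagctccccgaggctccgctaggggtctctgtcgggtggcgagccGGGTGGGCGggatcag
App peak 2 (chr16:85173274-85173501, minus strand): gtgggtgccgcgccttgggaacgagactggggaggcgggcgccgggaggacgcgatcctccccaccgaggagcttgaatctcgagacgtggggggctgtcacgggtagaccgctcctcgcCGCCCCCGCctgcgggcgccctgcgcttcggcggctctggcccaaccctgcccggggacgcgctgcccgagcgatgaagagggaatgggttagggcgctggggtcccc
Psen2 peak 1, upstream end (chr1:180256287-180256436, minus strand): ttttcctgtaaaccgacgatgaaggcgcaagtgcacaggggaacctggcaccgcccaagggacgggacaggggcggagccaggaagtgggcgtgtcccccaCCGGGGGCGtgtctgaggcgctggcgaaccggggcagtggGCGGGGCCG

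The next sequences are those at Mapt, Cdk5r2 and Cdk5, shown because they differ in what they hold: a site 1 base away in both promoter peaks of Mapt and in the upstream peak of Cdk5r2, and no site in the promoter peak of Cdk5. Capitals again mark sites, those 1 base away included.
Mapt peak 1, site only (chr11:104231532-104231560, plus strand): caccttctgcCGCCGCCGCcacaaccacc
Mapt peak 2 (chr11:104232429-104232692, plus strand): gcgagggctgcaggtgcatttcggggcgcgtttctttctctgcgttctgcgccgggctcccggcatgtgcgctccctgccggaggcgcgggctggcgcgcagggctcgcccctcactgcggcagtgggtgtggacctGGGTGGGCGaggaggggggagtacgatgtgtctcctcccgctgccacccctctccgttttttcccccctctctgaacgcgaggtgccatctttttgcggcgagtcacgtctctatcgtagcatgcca
Cdk5r2 peak 1 (chr1:74850374-74850623, plus strand): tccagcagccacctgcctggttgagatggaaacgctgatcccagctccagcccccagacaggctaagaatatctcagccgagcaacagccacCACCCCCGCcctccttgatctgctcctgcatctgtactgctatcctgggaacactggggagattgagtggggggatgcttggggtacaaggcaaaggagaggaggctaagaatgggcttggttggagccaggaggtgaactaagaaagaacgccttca
Cdk5 peak 2, upstream end (chr5:24423531-24423715, minus strand): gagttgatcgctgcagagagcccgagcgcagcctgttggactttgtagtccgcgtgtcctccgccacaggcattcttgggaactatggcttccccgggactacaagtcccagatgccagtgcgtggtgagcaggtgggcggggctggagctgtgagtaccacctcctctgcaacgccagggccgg

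App, Psen2, Mapt, Ache, Cdk5 and Cdk5r2 each had at least 1 peak within 2 kb of one of their own TSSs, Cdk5r1 had peaks only farther away, and Bace1 and Bace2 had none. The share of genes with a peak was thus 77.8% (7 of 9), beside 39.6% of the 21951 protein-coding genes annotated. The 9 genes were chosen with earlier results of these data known, and no test of enrichment was made. The 21951 genes were not limited to those expressed in cortex. For a peak within 2 kb of a TSS the shares were 66.7% (6 of 9) and 29.6%. For 2 or more peaks they were 66.7% (6 of 9) and 13.7%, but this count of the 9 genes rests partly on peaks of higher IDR. At an IDR of 0.001 or less, only App, Mapt and Cdk5r2 kept 2 peaks. Psen2 peak 2 (0.00420), Cdk5 peak 1 (0.00682) and Cdk5r1 peaks 1 (0.0198) and 3 (0.0107) were above that limit. The share of all genes with 2 or more peaks was not counted at that limit. Mapt held 5 peaks, Cdk5r1 held 3, App, Psen2, Cdk5 and Cdk5r2 held 2 each, and Ache held 1. The assignment rests on position alone, and whether the binding changed transcription of any of these genes was not tested.

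**Figure D1:**
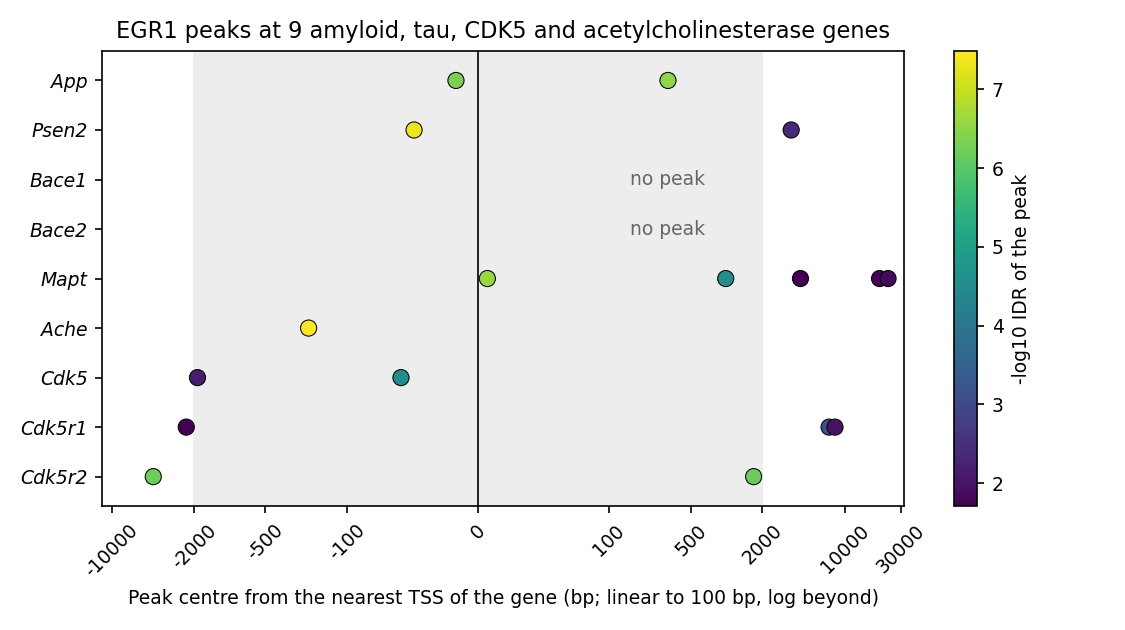
Positions of the 17 peaks relative to the nearest TSS of their own gene, in bp, on an axis that is linear to 100 bp and logarithmic beyond, with 2 kb on either side shaded. Each point is a peak centre coloured by -log10 of its IDR; App, Psen2, Mapt, Ache and Cdk5 have a point within 250 bp of a start, all 3 points of Cdk5r1 lie over 2 kb away, and Bace1 and Bace2 have none.

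App, the substrate of the secretases, spans chr16:84949685-85173766 on the minus strand, and both of its peaks lay at its start. The first, at chr16:85173725-85173840, was centred 17 bp upstream of a TSS and had an IDR of 4.67e-07, which ranked 2147 of 12014. The second, at chr16:85173274-85173501, was centred 316 bp downstream in an intron and had an IDR of 3.03e-07, ranked 1727. Their centres were 395 bp apart. GC content was 75.9% in the first peak and 73.7% in the second. The second peak held the exact site GCGGGGGCG, centred 11 bp from the peak centre, and the first held only GGGTGGGCG, 1 base away from the motif and 4 bp past the TSS. No peak was listed elsewhere in this gene of 224082 bp. Among the 2492 protein-coding genes of 100 kb or more, 35.0% had a peak in the body over 2 kb from their TSSs; Mapt, with 3, belonged to these and App did not.

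Psen2, a gamma-secretase subunit, spans chr1:180227004-180263438 on the minus strand and had 2 peaks that differed widely in reproducibility. Peak 1, at chr1:180256261-180256436, had an IDR of 4.57e-08 and ranked 368, within the first 3.06% of the list. It was centred 49 bp upstream of the principal TSS, that of the coding transcript ranked first from the annotation. This start is internal: the 5′-most TSS of Psen2 lay 7089 bp away, and the peak fell in an intron of the longer transcript. The start of the antisense noncoding gene Gm31728 was 80 bp from the centre. This peak held no exact site and had GCGGGGCCG and CCGGGGGCG, each 1 base away. Peak 2, at chr1:180225927-180226190, lay 945 bp past the end of the gene, with an IDR of 0.00420 and a rank of 9138, and held 1 exact site, 26 bp from its centre. The sequence of this downstream peak, with the exact site in capitals, is shown for comparison with the promoter peak printed above.
Psen2 peak 2 (chr1:180225927-180226190, minus strand): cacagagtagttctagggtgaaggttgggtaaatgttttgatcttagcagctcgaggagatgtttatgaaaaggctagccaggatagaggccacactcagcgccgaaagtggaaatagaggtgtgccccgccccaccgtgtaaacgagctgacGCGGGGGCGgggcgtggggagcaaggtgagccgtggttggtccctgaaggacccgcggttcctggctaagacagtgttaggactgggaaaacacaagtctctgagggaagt

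Bace1 (chr9:45838580-45864399, plus strand), the beta-secretase gene, and Bace2 (chr16:97356742-97442936, plus strand) were the genes without a peak. The peak nearest to a TSS of Bace1 was 100756 bp away, and 29.5% of protein-coding genes had their nearest peak at least as far. For Bace2 this distance was 184959 bp, and 20.4% of genes were at least as far from a peak. The promoters of these genes were unlike in base composition. In the 250 bp on either side of the principal TSS, the observed over expected CpG ratio, which is near 1 where CpGs are as frequent as the C and G content predicts, was 0.50 at Bace1 and 0.82 at Bace2. The window at Bace1 had a GC content of 58.0%, 21 CpGs and no site within 1 base of the motif. The window at Bace2 had a GC content of 70.0%, 50 CpGs, no exact site and 3 sites 1 base away. Of the 1188 promoters whose CpG ratio was within 0.05 of that of Bace1, 20.5% (243; Wilson 95% interval 18.3 to 22.8) had a peak within 2 kb. Of the 2948 promoters as close to Bace2, 47.1% (1389; interval 45.3 to 48.9) had one. Bace2 was thus among the slightly larger part of such promoters that had no listed peak. Since depth is unknown, this says only that no peak passed the threshold at these genes.

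Mapt, the tau gene (chr11:104231390-104332090, plus strand), had the most peaks of the 9 genes, a promoter pair and 3 far inside the gene. Of these 3, peaks 3 and 4 were centred 3563 bp apart, and peak 5 lay 71273 bp beyond peak 4. Peak 1 (chr11:104231525-104231656), in the 5′ untranslated region, was centred 7 bp from a TSS and had an IDR of 2.53e-07, ranked 1551. Peak 2 (chr11:104232429-104232692), in an intron 977 bp downstream, had an IDR of 2.81e-05, ranked 4297. Peaks 3 to 5 were intronic and close to the limit of the list: chr11:104251196-104251445 had an IDR of 0.0175, chr11:104254752-104255015 one of 0.0141 and chr11:104326032-104326281 one of 0.0189. They ranked 11734, 11300 and 11897 of 12014, and lay 19737, 23300 and 4208 bp from the nearest Mapt TSS, internal starts included. The promoter pair had CpG ratios of 0.98 and 0.88, against 0.23, 0.17 and 0.37 in the intronic peaks. None of the 5 peaks held an exact site. Peaks 1 and 2 held GCGGCGGCG and GGGTGGGCG, peak 5 held GTGTGGGCG, and peaks 3 and 4 held nothing within 1 base. Peak 3 was centred 173 bp from the start of the miRNA gene Gm47310, and 52.8% of the bases of peak 5 were annotated as repeats.

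Cdk5 (chr5:24418241-24423530, minus strand) shared its peaks with a neighbour. Peak 2 (chr5:24423463-24423715) was centred 59 bp upstream of a Cdk5 TSS and 248 bp from a TSS of Slc4a2, an anion exchanger gene transcribed from the opposite strand, and had an IDR of 2.78e-05, ranked 4290. Peak 1 (chr5:24425267-24425530) was centred 1869 bp upstream of Cdk5 but only 114 bp from another Slc4a2 TSS, in an exon of that gene. It had an IDR of 0.00682, ranked 9955. The peak nearer to Slc4a2 held an exact GCGGGGGCG, and the peak nearer to Cdk5 held no site within 1 base. The 10 kb rule gave both peaks also to Asic3, an acid-sensing ion channel gene. Peak 2 lay between divergent starts, so position cannot give it to either gene, while peak 1 lay nearer to Slc4a2.

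The activator genes of CDK5 differed from each other. Cdk5r2 (chr1:74854934-74857732, plus strand), which encodes p39, had 2 peaks of nearly equal rank, 2434 and 2463, at IDRs of 6.48e-07 and 7.08e-07. The first (chr1:74850374-74850623) lay 4435 bp upstream of the gene and 396 bp from the start of the noncoding gene Gm16582, with a CpG ratio of 0.20 and the site GCGGGGGTG, 1 base away. The second (chr1:74856534-74856704) lay in the 3′ untranslated region, 1685 bp from the TSS, and held the exact motif. No peak was centred within 250 bp of the Cdk5r2 TSS.

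Cdk5r1 (chr11:80477023-80481184, plus strand), which encodes p35, had 3 peaks, all outside the gene. Peak 1 (chr11:80474564-80474827), 2327 bp upstream, had an IDR of 0.0198 and ranked 11992, close to the end of the list, and it held no CpG at all. Peaks 2 (chr11:80484294-80484543) and 3 (chr11:80485188-80485451) lay 7363 and 8264 bp downstream of the TSS, within the unconventional myosin gene Myo1d, with IDRs of 0.000757 and 0.0107. Peak 2 was centred in an intron of Myo1d and overlapped its coding sequence by 89 bp at the edge, and peak 3 lay in an intron, with 47.3% of the bases of peak 3 annotated as repeats. None of the 3 held a site within 1 base of the motif. Yet the Cdk5r1 promoter was the richest in CpG of the 9: its 500 bp window had a GC content of 78.4%, 84 CpGs and a CpG ratio of 1.12, above 99.1% of promoters. The window also held an exact GCGGGGGCG centred 10 bp upstream of the principal TSS and 7 sites in all within 1 base, and no peak was listed there. The 250 bp before its TSS are shown with the exact site in capitals, as a motif match without a listed peak.
Cdk5r1 promoter (chr11:80476773-80477022, plus strand): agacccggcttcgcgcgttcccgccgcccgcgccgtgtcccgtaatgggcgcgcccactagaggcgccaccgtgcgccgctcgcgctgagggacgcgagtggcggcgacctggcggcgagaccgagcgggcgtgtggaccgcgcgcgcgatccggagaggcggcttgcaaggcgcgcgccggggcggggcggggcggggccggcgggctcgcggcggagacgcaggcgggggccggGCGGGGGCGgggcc

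Ache (chr5:137287519-137294466, plus strand) had a single peak, and it was the most reproducible of the 17. It lay at chr5:137287219-137287393, centred 213 bp upstream of the 5′-most TSS, with an IDR of 3.22e-08 and a rank of 230, within the first 1.91% of the list. The peak held GCGTGGGCG, the only exact site with a T at the variable base among the 17 peaks, and 2 sites 1 base away, GCGTGCGCG and GCGTGGGCA. The principal TSS lay 971 bp from the peak. Its window held 2 exact GCGGGGGCG sites, 67 and 44 bp upstream, but no peak was listed over them. The 10 kb rule also gave this peak to Srrt and Ufsp1, whose starts were farther away; the nearer of them, that of Ufsp1, was 7323 bp off.

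By the lowest IDR of each gene, the order was Ache, Psen2, Mapt, App, Cdk5r2, Cdk5 and Cdk5r1. Among protein-coding genes with a peak, Ache was at percentile 3.52 and Psen2 at percentile 5.54, while Mapt (21.7), App (24.2) and Cdk5r2 (32.3) followed. Cdk5 was near the middle, at percentile 51.2, and Cdk5r1 at 71.1. With a single merged list, no spread is available to say which neighbours in this order differ.

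**Figure D2:**
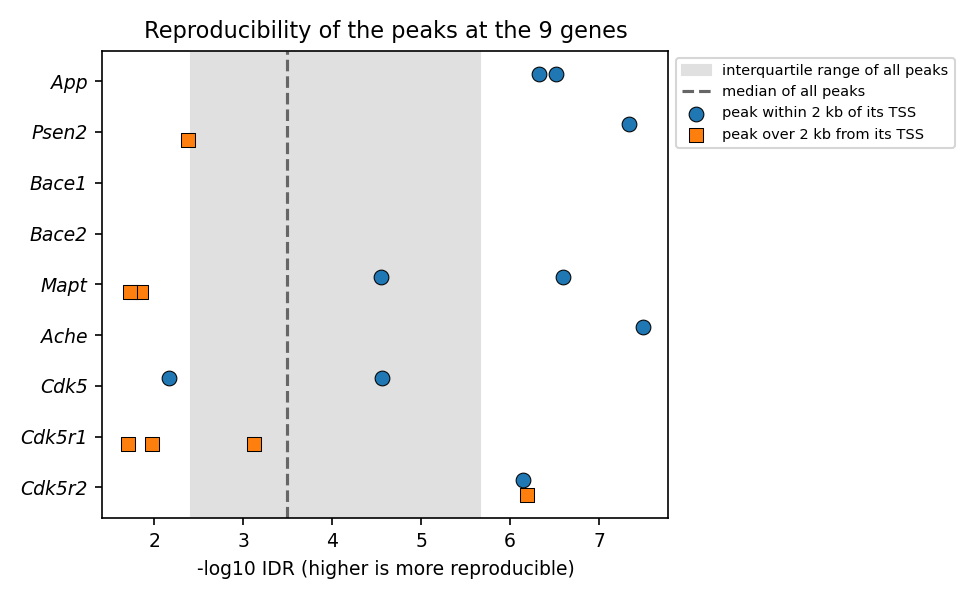
Reproducibility of each peak as -log10 of its IDR, by gene, with circles for peaks within 2 kb of a TSS of that gene, squares for peaks beyond, and a dashed line and grey band for the median and the interquartile range of all peaks. The circles of Ache and Psen2 lie farthest right, at IDRs of 3.22e-08 and 4.57e-08, and the squares of Mapt and Cdk5r1 all lie left of the median.

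Over the 17 peaks the median IDR was 2.81e-05, with values from 3.22e-08 to 0.0198, beside a median of 0.000321 for all peaks. The share at an IDR of 0.001 or less, 58.8% (10 of 17; Wilson 95% interval 36.0 to 78.4, for counting error only), was nevertheless near the 59.6% of all peaks. The values were split by position: the 11 peaks within 2 kb of any annotated TSS had a median IDR of 6.48e-07, and the 6 beyond had a median of 0.0124. Among all peaks the same medians were 9.91e-05 and 0.00125. Single peaks went against these medians: Cdk5 peak 1 and Mapt peak 3, near starts, had IDRs of 0.00682 and 0.0175, and Cdk5r1 peak 2, beyond 2 kb, had one of 0.000757. At an IDR of 0.001 or less, the shares were 81.8% near starts (9 of 11; interval 52.3 to 94.9) beside 66.3% of all such peaks, and 16.7% beyond (1 of 6; interval 3.0 to 56.4) beside 47.5%, so neither share differed from that of all peaks by more than its counting interval. The share of peaks within 2 kb of a TSS, 64.7% (11 of 17), was near the 63.2% of all peaks.

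An exact motif was present in 5 of the 17 peaks, 29.4% (interval 13.3 to 53.1), beside 16.6% of the 11938 peaks on assembled chromosomes. These were App peak 2, Psen2 peak 2, Ache peak 1, Cdk5 peak 1 and Cdk5r2 peak 2. With 1 differing base allowed, the share was 64.7% (11 of 17), beside 69.8% of all peaks. The interval of the exact share spans the background value, so no difference is claimed. All intervals over these peaks treat them as independent, although the 17 lie at only 7 genes. The 6 peaks with no site within 1 base were Mapt peaks 3 and 4, all 3 peaks of Cdk5r1 and the promoter peak of Cdk5. Other motifs were searched on both strands for comparison. The GC box GGGCGG, the core that SP1 binds and which can overlap an EGR1 site, was in 47.1% of the 17 peaks and 55.8% of all peaks. The cyclic AMP response element TGACGTCA was in 0 of 17, with a Wilson upper bound of 18.4%, and in 1.3% of all peaks. The E-box CACGTG was likewise in 0 of 17, and in 7.5% of all peaks.

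The median CpG ratio was 0.685 (SD 0.318, n = 17 peaks), beside 0.60 for all peaks, and the median GC content was 60.8%, beside 60.4%. Base composition followed position here as it did in the list as a whole: the median ratio was 0.841 in the 11 peaks within 2 kb of a TSS and 0.33 in the 6 beyond, beside 0.761 and 0.29 for all peaks. Cdk5r2 peak 1 and Mapt peak 3 were exceptions, since they lay near the start of a noncoding gene and had ratios of 0.20 and 0.23. Psen2 peak 2, beyond 2 kb, was an exception the other way, with a ratio of 0.69. The width of the peaks had a median of 250 bp, the same as in the whole list, and the shortest, of 116 bp, was the peak at the App TSS.

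**Figure D3:**
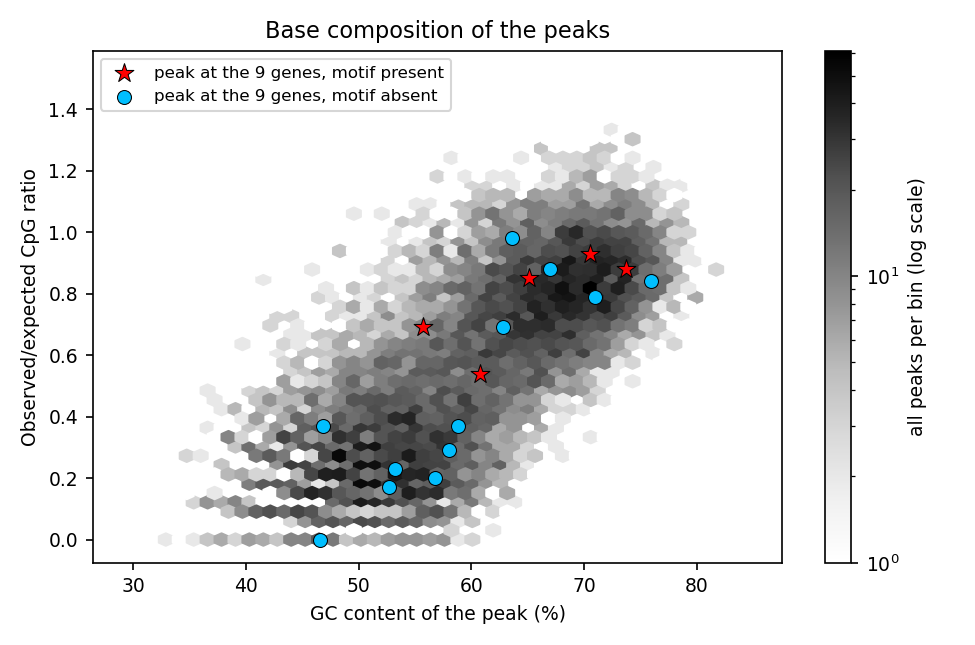
Observed over expected CpG ratio against GC content in percent, with the 17 peaks as stars (exact motif present) and circles (absent) over all peaks in grey bins shaded by count on a log scale. The 5 stars have ratios of 0.54 or more, and the circle at a ratio of 0 is Cdk5r1 peak 1.

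Of the 9 windows around the principal TSSs, those of Ache and Cdk5r1 held an exact site, 2 and 1, and 1 of these 2 genes, Ache, had a peak within 2 kb, centred 971 bp from the TSS and not over the sites. Of the 7 windows without an exact site, 5 had a peak within 2 kb, namely those of App, Psen2, Mapt, Cdk5 and Cdk5r2, with 4, 3, 5, 0 and 1 sites within 1 base. Over 21853 protein-coding promoters on assembled chromosomes, the window held an exact site in 18.2% of those with a peak within 2 kb of the principal TSS and in 2.7% of those without. The median CpG ratio was 0.82 with a peak and 0.41 without. App (0.87), Mapt (0.88), Psen2 (0.77) and Cdk5r2 (0.76) were close to the first value, and Ache (0.69) and Cdk5 (0.65) lay between the medians. Bace2 (0.82) had no peak, though its ratio equalled the median of promoters with one.

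**Figure D4:**
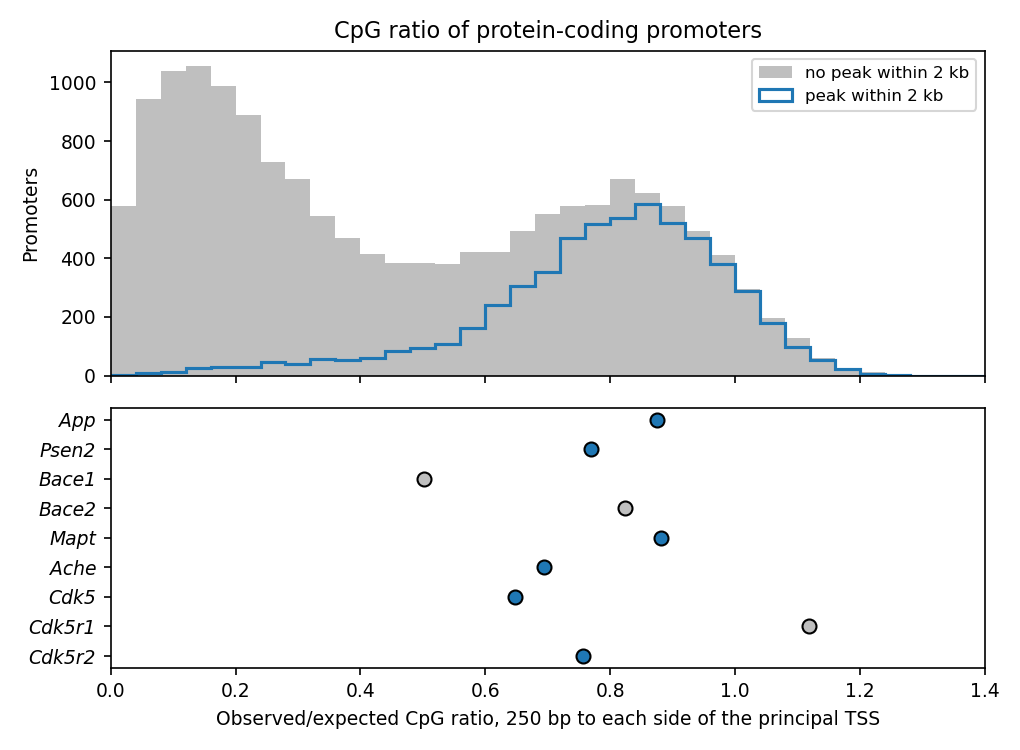
Histogram of the CpG ratio in the 500 bp window around the principal TSS of protein-coding genes, with a peak within 2 kb (blue line) and without (grey), above the ratio of each of the 9 genes in the same colours. The grey points of Cdk5r1 (1.12) and Bace2 (0.82) stand at or above the median ratio of promoters with a peak, and that of Bace1 (0.50) stands nearer to the median of those without.

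Genes of the same pathways were then counted in 4 lists, which had been written with earlier results of these data known and exclude the 9 genes. Of all 54, 37 had a peak (68.5%) and 29 had one within 2 kb of a TSS (53.7%), beside the 39.6% and 29.6% of all protein-coding genes. The 37 fell to 34 when each peak was given only to its nearest protein-coding TSS, and to 28 at an IDR of 0.001 or less. Under these settings 31.3% and 28.9% of all protein-coding genes had a peak.

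In the amyloid list, 11 of 17 genes had a peak and 8 had one within 2 kb of a TSS. The genes without were Ncstn and Aph1b, which encode gamma-secretase subunits, the alpha-secretase genes Adam10 and Adam17, the amyloid-degrading neprilysin gene Mme, and the lipoprotein gene Apoe. Both App paralogues, Aplp1 and Aplp2, had a peak within 2 kb of a TSS, and Aplp2 reached an IDR of 4.3e-08, lower than that of App.

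In the list of tau kinases, phosphatase subunits and microtubule-associated proteins, 12 of 14 genes had a peak, each within 2 kb of a TSS. Ppp2ca, a catalytic subunit of the phosphatase PP2A, and Map2 were without. All 4 MARK kinase genes, both Gsk3 genes and both tau tubulin kinase genes had a promoter peak. Over all peaks of each gene, those with a lowest IDR below that of Mapt included Map1b (7.84e-08), Ttbk2 (8.01e-08) and Mark1 (8.98e-08).

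Of the CDK5 substrates and related kinases, 8 of 10 had a peak and 5 had one within 2 kb of a TSS. Amph, which encodes the endocytic CDK5 substrate amphiphysin, and Cables1, a CDK5-binding protein gene, had none. Of the acetylcholine list, 6 of 13 had a peak and 4 had one within 2 kb, shares of 46.2% and 30.8% that were near those of all genes. Its genes split by role, since every peak was at a receptor gene. Peaks were found at 3 of the 3 nicotinic subunit genes listed and 3 of the 4 muscarinic receptor genes listed, all but Chrm2. Of these genes, only Chrm1 and Chrm4 had a peak at an IDR of 0.001 or less. The lowest IDRs of Chrna4, Chrm3, Chrna7 and Chrnb2 were 0.00116, 0.00157, 0.00405 and 0.00526. The peaks nearest to a TSS of Chrnb2 and Chrm3 were 8210 and 115153 bp away. Chrm4, a muscarinic receptor gene, had the lowest IDR of the 54 genes, 3.58e-08. None of the 6 genes for acetylcholine synthesis, transport, hydrolysis or the anchoring of the enzyme had a peak, namely Chat, Slc18a3, Slc5a7, Bche, Colq and Prima1. Ache, whose product hydrolyses acetylcholine, had the peak described above. The grouping by role was made after the values were seen.

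**Figure D5:**
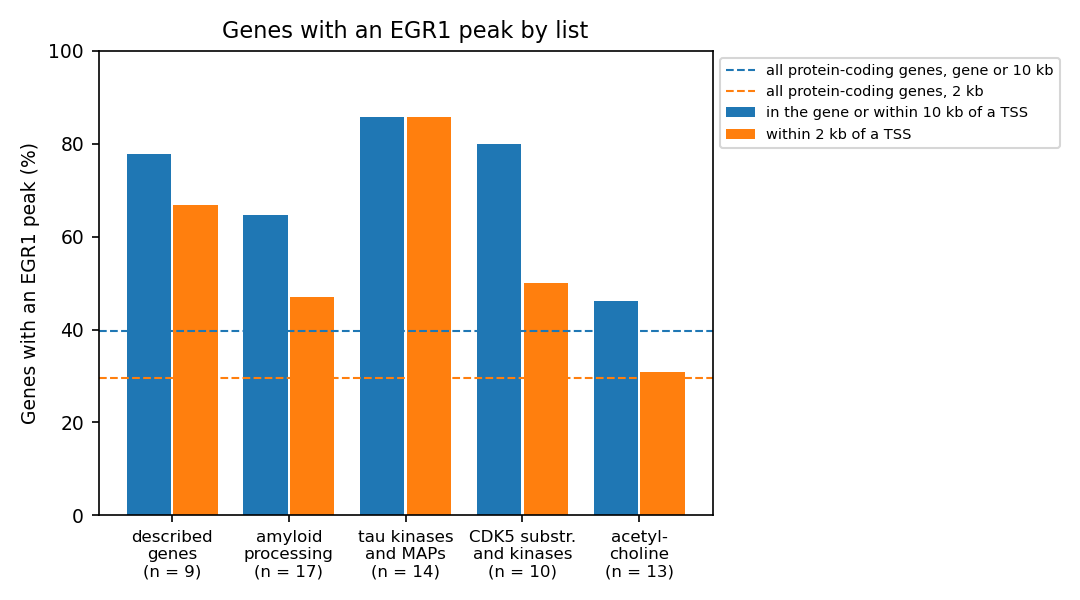
Share of genes with a peak in the gene or within 10 kb of a TSS, and within 2 kb of a TSS, for the 9 genes and 4 pathway lists, with the shares of all protein-coding genes as dashed lines. The tau list reaches 85.7% on both counts, and the acetylcholine list, at 46.2% and 30.8%, is close to the lines.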

How the data were processed

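ChIP-seq was performed with an antibody to EGR1 on mouse frontal cortex, with an input DNA control. Per the labels, reads were aligned to mm10. The submitters' processing notes name Bowtie2 2.2.9 and bedtools 2.26.0, whereas the paper names Bowtie for the ChIP-seq reads. The paper called the EGR1 peaks with SPP and filtered them by IDR. The authors deposited 1 merged list of 12014 peaks from both immunoprecipitations with an IDR, which is read like a q-value (a p-value adjusted over peaks), up to 2.0%. It holds no heights or read counts, so depth is unknown and no sample could be compared with another. Starts were read as counted from 0 and are printed as counted from 1. Peak centres were assigned to GENCODE M21 genes, and sequences were read from the RefSeq GRCm38 assembly (mm10) with pysam 0.24.0 and tabulated with pandas 2.3.3 and scipy 1.17.1. The 76 peaks on scaffolds were left out of sequence counts. No test was made. All 9 genes were named; of the pathway lists, the genes without a peak and the 5 with the lowest IDR were named, and others are examples chosen after values were seen. The members and lists were chosen with earlier results of these data known, and promoter windows, other motifs and the share of long genes were added after values were seen. Assignment and motif search were tested on simulated data. The values of 1 gene of the pathway lists and the sequence of 1 peak are not reported here.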

Additional observations from a re-analysis of the deposited data

How the results depend on the processing

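Of 34 alternative settings over 7 results, 31 left the value within limits set for each kind of result: 1.5 times for a count, the 95% interval for a share, and 1 SD between the 17 peaks for the CpG ratio and for log10 IDR. The last of these is wide, and the summary IDR of the 17 peaks rose from a median of 2.81e-05 to 5.51e-05 as a geometric mean. Of the 9 genes, 7 had a peak under every assignment rule tried except a TSS distance of 2 kb in place of 10 kb. There the count was 6 because Cdk5r1 dropped out, and Bace1 and Bace2 had no peak under any rule. Over the same rules the share of all protein-coding genes ran from 28.9%, at an IDR of 0.001 or less, to 39.6%. At 2 kb it was 34.1%. The 17 peaks fell to 10 (58.8%, beside 59.6% of all peaks) when an IDR of 0.001 or less was required. Only App, Mapt and Cdk5r2 then kept 2 peaks. The share of peaks with the motif, 29.4%, was 5.9% when GCGTGGGCG alone was sought and 64.7% when 1 differing base was allowed. Among all peaks on assembled chromosomes it was 16.6% for the exact motif and 69.8% with 1 differing base. The share of all peaks with GCGTGGGCG alone was not summarised. No paired analysis was possible because the deposited list merges both immunoprecipitations, and for the same reason no replicate could be left out. Depth is unknown, so a gene without a peak cannot be called unbound.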
